A study of Mus musculus with 10 samples.

Results

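The calpain and caspase genes followed here are 8 genes chosen by name from the 39179 gene identifiers listed for each mouse muscle library. They comprise the catalytic calpain subunits Capn1, Capn2 and Capn3, the small regulatory subunit Capns1, the calpain inhibitor calpastatin (Cast), the initiator caspases Casp8 and Casp9, and the inflammatory caspase Casp4. The naming rule itself uses no measured value, although earlier results of these data were known when the genes were chosen. The working description of the set speaks of effector caspases, but caspase-8 and caspase-9 are initiators and caspase-4 is inflammatory.

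Calpains are calcium-activated cysteine proteases of the cytosol that cleave a limited number of bonds in cytoskeletal and sarcomeric proteins, and in muscle they are known for releasing myofilament proteins that the proteasome then degrades. Calpain-1 and calpain-2 each pair with the small subunit and are held in check by calpastatin, whereas calpain-3 is specific to skeletal muscle and binds titin. Caspases cleave after aspartate: initiators are activated on death receptor complexes (caspase-8) or on the apoptosome (caspase-9), and mouse caspase-4, also known as caspase-11, senses bacterial lipopolysaccharide inside the cell. All these enzymes are made as inactive or inhibited proteins, so transcript level is only the first layer of their control and protease activity was not measured in these libraries.

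Total RNA from tibialis anterior, a fast muscle of the lower leg, was sequenced from 4 Control and 6 LLC mice, 1 library per mouse. LLC mice carried tumors of the Lewis Lung Carcinoma cell line, a mouse lung cancer line injected under the skin of both flanks, and Control mice received PBS there, with no tumor (0 days). The sample labels give the strain C57BL/6J, an age of 10 weeks and 23 days of tumor growth, whereas the design text of the series gives C57BL/10 males, an age of 8 weeks and 22 days, and the difference could not be resolved. The LLC mice had lost body weight by the time of collection, and only animals that survived to that time could be sampled, with all tumors coming from 1 cell line. The comparison asks which transcripts differ in muscle during cancer cachexia, the loss of muscle and fat that accompanies a tumor.

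Between 16693209 and 21303084 reads were counted per library, with a lower mean in LLC (18053293 ± 1216717, SD, n = 6) than in Control (20072263 ± 943898, n = 4; two-sided exact permutation test, p = 0.0381). Mitochondrial genes took 29.6% ± 1.03 of Control reads and 25.6% ± 2.54 of LLC reads (exact permutation test, p = 0.00952, the smallest that 210 splits allow). The tissue label fitted its markers, since the summed level of 10 fast fibre genes was 122566 ± 3373 CPM (counts per 1000000 counted reads, after TMM scaling of library size) in Control and 112747 ± 17513 in LLC, and 7 lymphocyte markers together reached 0.713 and 0.473 CPM. The LLC 1 library stood apart at 78637 CPM of fast fibre genes, with the other LLC libraries at 113979 or more. Summed markers of neutrophils rose from 1.65 ± 0.791 CPM (1.11 to 2.81) to 53.8 ± 18.7 CPM (36.2 to 77.5). Those of fibro-adipogenic cells fell from 372 ± 39.7 to 128 ± 12.6 CPM, although 1 of the 8 had a positive log2 fold change. Those of erythroid cells rose from 71.7 to 112 CPM. The p-value of each of these sums was 0.00952 by exact permutation test (0.0222 after Benjamini-Hochberg adjustment over 7 lists). The marker lists were chosen with earlier results of these data known, so these p-values are no independent support. No marker of any list was at 0 in all libraries. Macrophage markers totalled 32.8 CPM in Control and 31.8 CPM in LLC (exact permutation p = 0.819), a sum over markers that moved in both directions. Lyz2 alone was 11.4 to 17.9 CPM in Control and 12.4 to 23.8 CPM in LLC. The sum thus rests largely on Lyz2, and unchanged macrophage content is not read from it. Of 9 tested macrophage markers, 3 had a positive and 6 a negative log2 fold change, with a median of −0.31.

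In the tumor-bearing mice, Casp4 was the 1 gene of the 8 to pass the test: it rose 2.71-fold, from 0.708 to 1.92 CPM. The calpain genes, calpastatin and Casp8 did not pass, and Casp9, lower in all 6 LLC libraries than in any Control library, did not pass either (log2 fold change −0.31, adjusted p = 0.200 by edgeR's quasi-likelihood test). All 8 genes were abundant enough to be tested among 12690 genes, and a gene was called at an adjusted p of 0.05 or less with at least a 1.5-fold change. By this rule 5.63% of all tested genes were called (1.65% higher and 3.99% lower), and 6.99% passed on adjusted p alone (2.14% higher and 4.85% lower), which 1 of the 8 also did. With so few genes no excess over the background is read from that count. The median log2 fold change of the 8 genes was 0.12, against 0.00 for all genes tested, with 6 positive and 2 negative values.

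**Figure D1:**
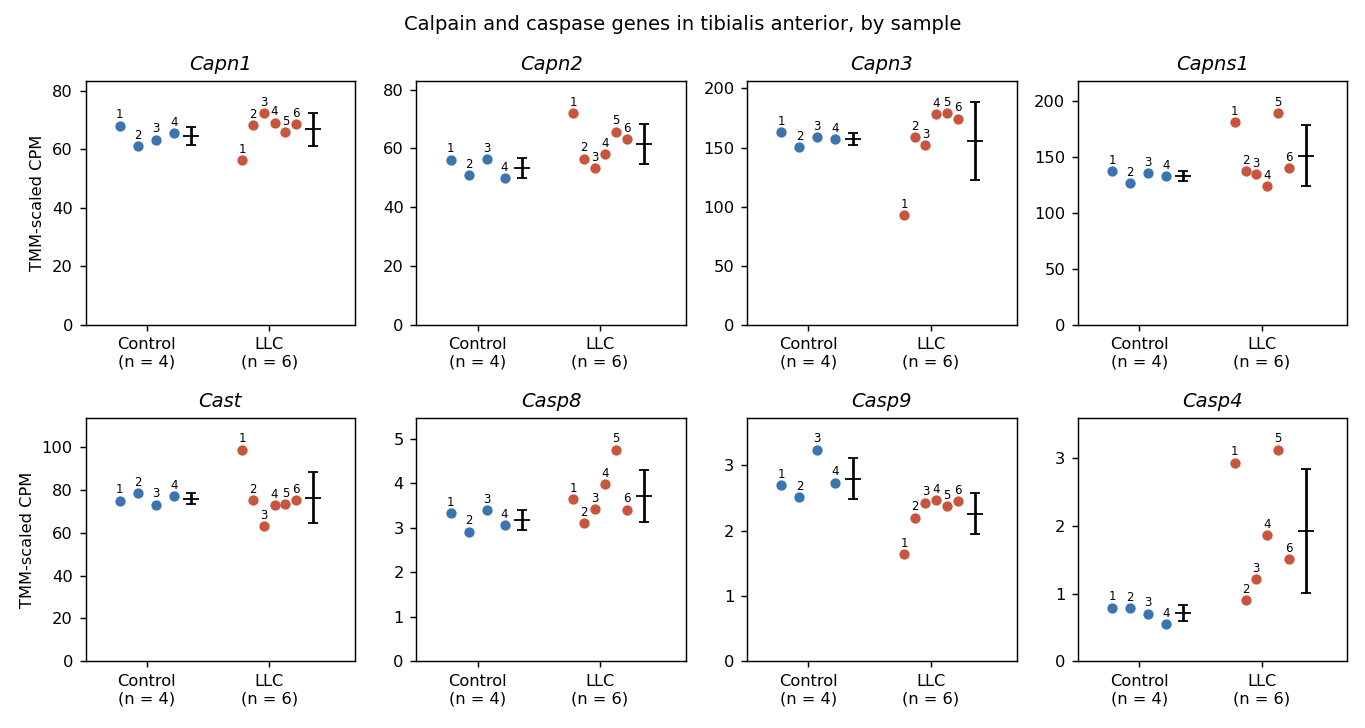
TMM-scaled CPM (vertical axes, each starting at 0) of the 8 genes in the 4 Control (blue) and 6 LLC (red) libraries, numbered by replicate, with mean ± SD beside each group. The 6 LLC points of Casp4 lie above every Control point and those of Casp9 below, and LLC 1 stands apart for Capn3, Cast and Casp9.

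Capn1 encodes the catalytic subunit of calpain-1, the form active at micromolar calcium, and spans chr19:5988545-6015897 on the minus strand (GRCm38, ENSMUSG00000024942). Its level was 68.1, 61.0, 63.3 and 65.5 CPM in Control 1 to 4 and 56.2, 68.1, 72.4, 69.1, 65.8 and 68.6 CPM in LLC 1 to 6. Of the LLC libraries 4 were above and LLC 1 was below all Control libraries, so the groups overlapped. The means were 64.5 ± 3.01 CPM (SD, n = 4) and 66.7 ± 5.56 CPM (n = 6), a log2 fold change of 0.05 ± 0.09 (SE) with a 95% interval from −0.14 to 0.24 (edgeR's quasi-likelihood test, adjusted p = 0.730).

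Capn2, at chr1:182467260-182517608 on the minus strand (ENSMUSG00000026509), encodes the catalytic subunit of calpain-2, the form that needs higher calcium. It measured 56.2, 50.9, 56.3 and 49.9 CPM in Control and 72.1, 56.5, 53.3, 58.1, 65.7 and 63.1 CPM in LLC. All LLC libraries but LLC 3 were above the Control range. The shift was nevertheless small, with means of 53.3 ± 3.40 and 61.5 ± 6.87 CPM and a log2 fold change of 0.21 ± 0.10 (95% interval −0.01 to 0.42, edgeR quasi-likelihood adjusted p = 0.201).

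Capn3, the muscle-specific calpain whose loss in people causes a limb-girdle muscular dystrophy, lies at chr2:120456019-120504913 on the plus strand (ENSMUSG00000079110). Control levels were tightly grouped at 163, 150.3, 159 and 157 CPM, while LLC levels were 92.6, 159, 152, 178, 179 and 175 CPM. The LLC 1 library was far below every other library and LLC 4, 5 and 6 were above all Control libraries. The means were therefore almost equal, 157 ± 5.33 and 156 ± 32.9 CPM, but the coefficient of variation was 3.39% in Control and 21.1% in LLC. The log2 fold change was −0.01 ± 0.16 (95% interval −0.36 to 0.34, edgeR quasi-likelihood adjusted p = 0.963), and it was 0.11 without LLC 1 (adjusted p = 0.320). In LLC 1 the summed fast fibre markers were low as well, and their part in its low Capn3 was not tested.

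Capns1 encodes the small subunit shared by calpain-1 and calpain-2, at chr7:30186936-30198811 on the minus strand (ENSMUSG00000001794). Control libraries held 137, 127, 135 and 132 CPM and LLC libraries 181, 137, 134, 124, 189 and 140.1 CPM. The LLC 1 and LLC 5 libraries were high and the other LLC libraries lay in or near the Control range. The log2 fold change between means of 133 ± 4.57 and 151 ± 27.2 CPM was 0.19 ± 0.13 (95% interval −0.09 to 0.46, edgeR quasi-likelihood adjusted p = 0.352).

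Cast encodes calpastatin, the specific inhibitor of calpain-1 and calpain-2, at chr13:74692368-74808810 on the minus strand (ENSMUSG00000021585). It measured 74.9, 78.4, 73.0 and 77.2 CPM in Control and 98.7, 75.2, 63.0, 72.7, 73.2 and 75.1 CPM in LLC. The LLC 1 library was the highest and LLC 3 the lowest of all 10, with the others close together. The means of 75.9 ± 2.38 and 76.3 ± 11.9 CPM gave a log2 fold change of 0.01 ± 0.11 (95% interval −0.24 to 0.26, edgeR quasi-likelihood adjusted p = 0.966). This value was negative in 5 of 19 alternative analyses, between −0.08 and 0.06 over all of them.

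Casp8, at chr1:58795374-58847503 on the plus strand (ENSMUSG00000026029), encodes the initiator recruited to death receptors through FADD. It was counted with 56 to 63 reads per Control library and 55 to 96 per LLC library, which gave 3.33, 2.91, 3.40 and 3.06 CPM in Control and 3.65, 3.10, 3.42, 3.98, 4.76 and 3.41 CPM in LLC. All LLC libraries but LLC 2 were above the Control range, LLC 3 and LLC 6 only just. The log2 fold change was 0.23 ± 0.14 (means 3.18 ± 0.231 and 3.72 ± 0.586 CPM, 95% interval −0.08 to 0.53, edgeR quasi-likelihood adjusted p = 0.294).

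Casp9, at chr4:141793612-141815976 on the plus strand (ENSMUSG00000028914), encodes the initiator activated on the apoptosome by Apaf1 and cytochrome c. It had 51, 51, 60 and 50 reads in Control and 32, 39, 42, 49, 48 and 44 reads in LLC, or 2.70, 2.52, 3.24 and 2.74 CPM against 1.64, 2.20, 2.43, 2.47, 2.38 and 2.46 CPM. The groups did not overlap, but the gap between the lowest Control and the highest LLC library was small, and 16.0% of all tested genes had groups that did not overlap (9.57% with LLC lower). The means of 2.80 ± 0.311 and 2.26 ± 0.319 CPM gave a log2 fold change of −0.31 ± 0.15 (95% interval −0.63 to 0.02, adjusted p = 0.200 by edgeR's quasi-likelihood test). Over all 19 alternatives the value stayed between −0.36 and −0.22 with an adjusted p of 0.181 or more.

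Casp4 lies at chr9:5308828-5336783 on the plus strand (ENSMUSG00000033538). It was the scarcest of the 8 genes in Control, with 15, 16, 13 and 10 reads, and had 57, 16, 21, 37, 63 and 27 reads in LLC 1 to 6. On the CPM scale these were 0.794, 0.789, 0.702 and 0.547 in Control and 2.93, 0.903, 1.22, 1.86, 3.12 and 1.51 in LLC. Every LLC library was above every Control library (812 tested genes, or 6.40%, had this pattern), but the size differed widely within LLC: LLC 1 and LLC 5 were highest and LLC 2 was only slightly above Control.

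The Casp4 means were 0.708 ± 0.115 CPM (SD, n = 4) and 1.92 ± 0.912 CPM (n = 6), a log2 fold change of 1.44 ± 0.36 (95% interval 0.64 to 2.24) with an adjusted p = 0.0369 by edgeR's quasi-likelihood test. It ranked 690 of 12690 genes by p, near the edge of the list of called genes. The call was lost, with the direction kept, when Control 1, 2, 3 or 4 was left out (adjusted p = 0.0926, 0.0867, 0.105 and 0.114), without LLC 5 (log2 fold change 1.25, adjusted p = 0.0698) and without LLC 6 (1.50, adjusted p = 0.0561), whereas without LLC 1 it was kept (1.30, adjusted p = 0.0287). DESeq2 gave 1.46 (adjusted p = 0.00361) and voom with sample quality weights 0.93 (adjusted p = 0.0257). Because whole muscle was sequenced, more cells of a Casp4-expressing type and more Casp4 RNA per cell cannot be told apart. Summed neutrophil markers, at 44.9, 50.4, 36.2, 76.3, 77.5 and 37.4 CPM in LLC 1 to 6 against at most 2.81 CPM in Control, were higher in the same libraries, and their part in the Casp4 difference was not tested. Of these 10 markers 9 passed the low-count filter, but through the LLC libraries, so no count of calls is read from them, whereas Casp4 had 10 or more reads in every library.

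The RefSeq promoter windows of Casp4 and Casp9, the genes with groups that did not overlap, are given because one holds inflammatory and FoxO motifs and the other repeated GC boxes. Each runs from 250 bases before to 50 bases after the annotated start, 5′ to 3′ on the plus strand of GRCm38.p6: chr9:5308599-5308898 for Casp4, with the FoxO motif and 2 overlapping NF-κB consensus matches in capitals, and chr4:141793362-141793661 for Casp9, with the GC boxes in capitals.
Casp4: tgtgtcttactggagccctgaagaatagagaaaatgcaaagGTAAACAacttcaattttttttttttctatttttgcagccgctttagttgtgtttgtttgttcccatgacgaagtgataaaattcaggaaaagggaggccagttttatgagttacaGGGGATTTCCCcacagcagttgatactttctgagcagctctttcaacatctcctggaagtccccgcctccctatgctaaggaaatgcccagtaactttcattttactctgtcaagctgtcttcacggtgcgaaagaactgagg
Casp9: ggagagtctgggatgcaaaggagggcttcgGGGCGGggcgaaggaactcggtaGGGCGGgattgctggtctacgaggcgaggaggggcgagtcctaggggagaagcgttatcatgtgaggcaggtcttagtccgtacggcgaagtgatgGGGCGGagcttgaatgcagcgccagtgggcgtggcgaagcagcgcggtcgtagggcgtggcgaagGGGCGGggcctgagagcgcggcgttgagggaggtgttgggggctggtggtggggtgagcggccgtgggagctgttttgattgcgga

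The first capitals in Casp4 are GTAAACA, the FoxO motif, 209 bases before the start, which 3.65% of the 32851 mouse promoter windows hold on either strand. The second run merges 2 matches of the NF-κB consensus that begin 93 and 92 bases before the start, and 4.505% of windows hold 1 or more. The NF-κB letters were widened to the full consensus after the Casp4 window had been seen. In Casp9 the GC box GGGCGG, the Sp1 motif, begins 220, 197, 101 and 36 bases before the start, and 35.66% of windows hold it. Repeated GC boxes were not particular to Casp9, since a Capn1 window held 3 and a Cast window held 2. A second RefSeq window of Casp4, shifted by 11 bases, holds the same matches, and none of the 12 windows of the other 7 genes held the NF-κB consensus. With only 4.505% of all windows holding it, no contrast with Casp4 is read from this. The STAT motif TTCNNNGAA (8.298% of windows) was found in a Cast window 171 bases before the start, and the AP-1 motif TGANTCA (7.808%) in the Capn2 window 183 bases before it. These are matches of letters, and no binding was measured.

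Counts divided by gene length allow levels to be compared between the 8 genes. Per kilobase of annotated exon, Control muscle held 53.6 ± 1.85 CPM of Capns1, 31.3 ± 1.06 of Capn3, 19.3 ± 0.900 of Capn1, 8.40 ± 0.537 of Capn2, 6.61 ± 0.207 of Cast, 1.10 ± 0.0797 of Casp8, 0.539 ± 0.0598 of Casp9 and 0.191 ± 0.0311 of Casp4 (SD, n = 4). No neighbours in this order overlapped in Control. The 5 calpain system transcripts were thus more abundant than the 3 caspase transcripts in every library, with the muscle-specific Capn3 first among the catalytic subunits.

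In LLC the means per kilobase kept the order down to Casp8: 60.9 ± 11.0 CPM for Capns1, 31.0 ± 6.56 for Capn3, 19.9 ± 1.66 for Capn1, 9.69 ± 1.08 for Capn2, 6.65 ± 1.04 for Cast and 1.29 ± 0.202 for Casp8 (SD, n = 6). Casp4, at 0.518 ± 0.246, then came before Casp9, at 0.435 ± 0.0613, but their ranges overlapped, from 0.243 to 0.841 for Casp4 and from 0.316 to 0.475 for Casp9. Casp4 passed Casp9 in LLC 1, 4 and 5 and in no Control library. The ranges of Capn3 (18.4 to 35.7) and Capn1 (16.8 to 21.7) overlapped as well, through LLC 1, as did those of Capn2 (8.40 to 11.4) and Cast (5.49 to 8.61), although within every library the first of each pair was higher. With the longest transcript as the length, the order of the group means was the same, but more libraries departed from it. Capn2 and Cast were then above Capn1, and Casp4 above Casp8, in LLC 1, and Casp4 passed Casp9 also in LLC 3 and LLC 6.

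**Figure D2:**
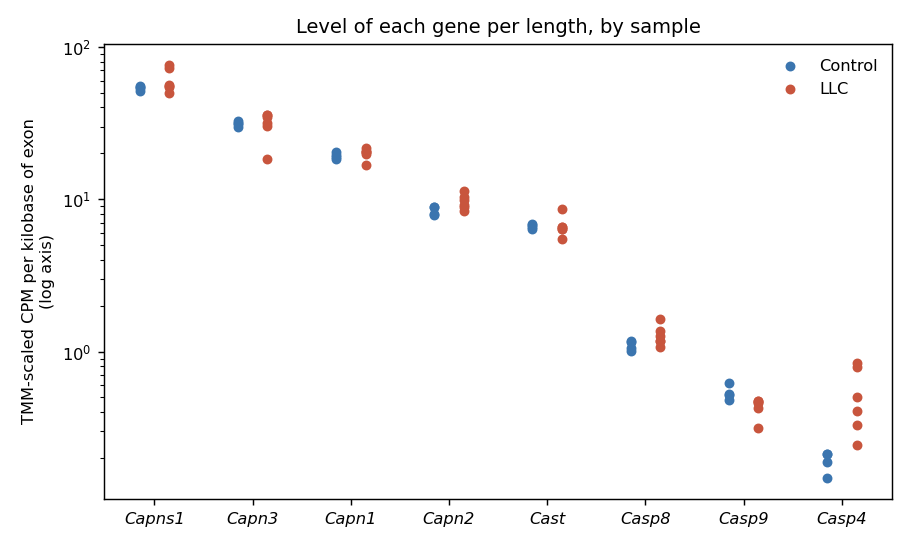
TMM-scaled CPM per kilobase of exon (log axis) of the 8 genes, ordered by Control level, with 1 point per Control (blue) or LLC (red) library. The calpain system genes lie above 5 and the caspase genes below 2. Some LLC points of Capn1, Cast and Casp4 reach past LLC points of the neighbour before them in the order. Only Casp4 passes that neighbour within the same library.

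Ratios within a library, formed from the per-kilobase levels, describe the balance of the calpain system without any scaling between libraries. The ratio of Capn2 to Capn1 was 0.436 ± 0.0276 in Control and 0.493 ± 0.101 in LLC, where LLC 1 reached 0.676. Calpastatin stood at 0.239 ± 0.0165 of the sum of Capn1 and Capn2 in Control and 0.225 ± 0.0417 in LLC, with LLC 1 at 0.306 and LLC 3 at 0.183 on opposite sides. The groups overlapped for both ratios.

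Capns1 was 1.94 ± 0.0289 times the sum of Capn1 and Capn2 in Control, a very narrow range, and 2.06 ± 0.400 times in LLC, where LLC 1 (2.60) and LLC 5 (2.54) were high. Capn3 made up 53.1% ± 0.290 of the 3 catalytic calpains in Control and 50.6% ± 5.64 in LLC, with LLC 1 at 39.6%. Casp4 over Casp9 was 0.280 to 0.439 in Control and 0.575 to 2.50 in LLC. Casp8 over Casp9 was 1.89 to 2.22 in Control and 2.49 to 3.99 in LLC. Since Casp4 was higher and Casp9 lower in every LLC library than in any Control library, the first ratio had to separate. The second has Casp9 as its denominator too, so neither separation is read as a result. Neither ratio was tested, since both were looked at with the single-gene values known.

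**Figure D3:**
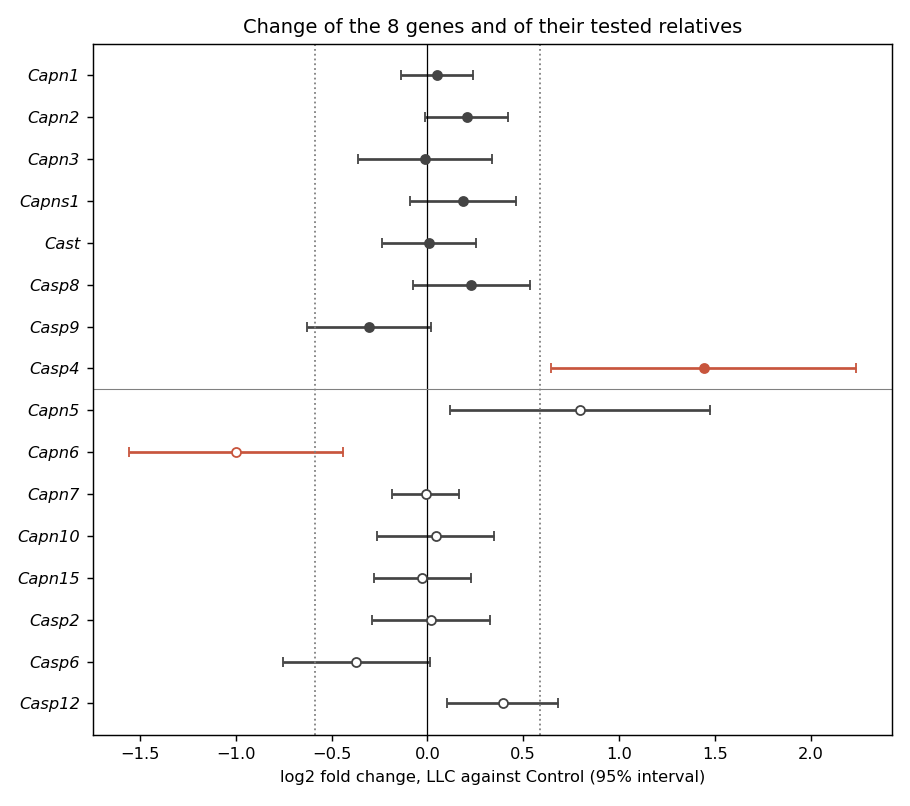
Log2 fold change of LLC against Control (horizontal axis) with 95% intervals for the 8 genes (filled points) and for their tested calpain and caspase relatives (open points), with called genes in red and dotted lines at 1.5-fold. Casp4 lies at 1.44 and Capn6 at −1.0, and for Capn1, Capn2, Capn3, Capns1, Cast and Casp8 the whole interval lies within 1.5-fold.

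For Capn1, Capn2, Capn3, Capns1, Cast and Casp8 the 95% interval lay within 1.5-fold in either direction, so a change of that size in the group mean was outside the range these libraries give for them. The interval of Casp9 reached past 1.5-fold lower. This bears on means only. All 8 genes were more variable among LLC than among Control libraries, by the SD of log2 CPM, but so were 10804 (85.1%) of all tested genes.

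The LLC libraries differed from each other in an unequal way. The LLC 1 library had the lowest Capn1, Capn3 and Casp9 and the highest Capn2 and Cast of the LLC group, and the second highest Capns1 and Casp4. In LLC 1, Capn3 was at 0.589 and Casp9 at 0.588 of the Control mean, while Capns1 was at 1.36 and Casp4 at 4.13 times that mean. The LLC 5 library had the highest Capn3, Capns1, Casp8 and Casp4, the last at 4.41 times the Control mean. LLC 2 had no gene other than Casp4 and Casp9 far from the Control mean.

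**Figure D4:**
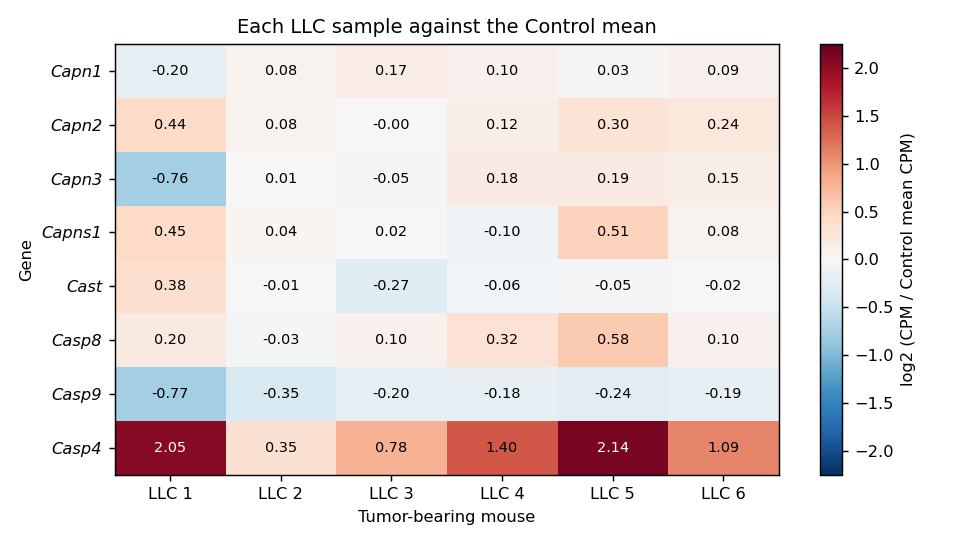
Log2 ratio of each LLC library's TMM-scaled CPM to the Control mean (color scale and printed values), with genes in rows and LLC libraries in columns. LLC 1 combines the lowest Capn3 and Casp9 with high Casp4, and LLC 5 has the highest Casp8, Capns1 and Casp4.

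The genes whose pattern over the 10 libraries lay nearest to each gene were found by the root mean square difference of log2 CPM after centring each gene. Nearest to Capn3 was Lgmn, the lysosomal protease legumain, at 0.0657, followed by Zfp74 (0.0814) and Krba1 (0.0839). Nearest to Capns1 were Tmem128 (0.0374), Psmb7, a catalytic subunit of the proteasome (0.0426), and Sin3b (0.0489). Clpb, Fam53c and Senp2 were nearest to Capn1, Vps18, Arcn1 and Ppp1r37 to Capn2, and Uap1, Nisch and U2surp to Cast.

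Among the caspases, Notch4, Flot1 and Eif2b2 were nearest to Casp8, and Prmt9 (0.0575), Cavin1 (0.0608) and Arhgef25 (0.0795) to Casp9. Nearest to Casp4 were Plaur, the urokinase receptor, at 0.220, Zfyve1 at 0.261 and Pnrc1 at 0.264. These distances are larger than for the other 7 genes, but so is the median distance of Casp4 to all genes, 0.802 against 0.282 to 0.371. Plaur itself had a log2 fold change of 1.26 (edgeR quasi-likelihood adjusted p = 0.0515). These distances describe 10 libraries that share the group difference and LLC 1.

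Among 11 other genes of the calpain family, 5 were abundant enough to test and 1 was called lower. Of all tested genes 5.63% were called, 1.65% higher and 3.99% lower. With lists this small, no excess or lack of calls is read from the counts here or in the lists below. Capn6, a calpain without the catalytic cysteine, was 2.51 ± 0.493 CPM in Control and 1.26 ± 0.455 CPM in LLC. In Capn6, 6 of 6 LLC libraries were below Control, a pattern of 9.57% of all tested genes. Its log2 fold change was −1.0 ± 0.26 (edgeR quasi-likelihood adjusted p = 0.038), and it was called in 11 of 19 alternatives. Capn5 had a log2 fold change of 0.80 (edgeR adjusted p = 0.133), and Capn7, Capn10 and Capn15 had values of −0.01, 0.04 and −0.03. The summed fibro-adipogenic markers fell in the same libraries as Capn6, and their part in its difference was not tested. Capn8, Capn9, Capn11, Capn12, Capn13 and Capns2 had too few reads.

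Among other caspases, Casp2, Casp6 and Casp12 were tested and none was called by edgeR, nor did any combine an unadjusted p of 0.05 or less with a 1.5-fold change. Casp6 gave a log2 fold change of −0.37 (1.73 ± 0.300 and 1.34 ± 0.217 CPM, edgeR adjusted p = 0.194), and Casp2 gave 0.02. Casp12, the inflammatory-group caspase associated with the endoplasmic reticulum, gave 0.39 ± 0.13 (10.9 and 14.3 CPM, edgeR adjusted p = 0.095). Casp1, which processes interleukin-1β in the inflammasome, had at most 11 reads in a library and means of 0.378 and 0.388 CPM, too few to test.

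In the death receptor arm around Casp8, 11 of 12 genes were tested and 1 was called higher, against 1.65% of all tested genes. Tnfrsf10b, the mouse TRAIL receptor, went from 1.35 ± 0.272 to 2.69 ± 0.361 CPM (log2 fold change 1.00 ± 0.17, edgeR quasi-likelihood adjusted p = 0.005) and was called in 18 of 19 alternatives. Tnfrsf1a, a receptor for tumor necrosis factor, reached an adjusted p of 0.030 by the same test with a log2 fold change of 0.46 ± 0.11, under the 1.5-fold minimum. The adaptor Fadd, the caspase-8 antagonist Cflar and the caspase-8 substrate Bid had values of −0.31, −0.09 and 0.50, none past the test. The median of the 11 tested genes was 0.43, with 7 positive and 4 negative values, against 0.00 for all genes.

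In the mitochondrial arm around Casp9, 18 of 19 genes were tested and 1 was called lower, against 3.99% of all tested genes. Bcl2, which keeps the outer mitochondrial membrane closed, went from 11.0 ± 2.27 to 4.92 ± 1.64 CPM (log2 fold change −1.16 ± 0.24, edgeR quasi-likelihood adjusted p = 0.013) and was called in 17 of 19 alternatives. The somatic cytochrome c gene Cycs was at 373 ± 12.8 CPM in Control and 249 ± 59.8 CPM in LLC, with 6 of 6 LLC libraries lower (9.57% of all tested genes had this pattern). It did not pass (log2 fold change −0.58 ± 0.17, edgeR adjusted p = 0.069). Apaf1, the scaffold of the apoptosome, gave 0.20, the caspase inhibitor Xiap −0.16, Bax 0.39 and Bcl2l1 0.52, with none called. The median of the 18 tested genes was 0.13, with 10 positive and 8 negative values. This list mixes genes that promote the arm with genes that restrain it, so its median has no single direction.

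In the inflammasome arm around Casp4, 6 of 10 genes were tested. Il1b, which encodes interleukin-1β, had 1 or 2 reads in each Control library and 9 to 44 reads in each LLC library. It passed the low-count filter through the LLC libraries alone and Control lay under the detection limit of 3 reads (0.141 to 0.180 CPM), so neither a fold nor a test is given for it. Gbp3, an interferon-induced guanylate-binding protein, fell from 3.46 to 1.85 CPM (log2 fold change −0.91 ± 0.21, edgeR quasi-likelihood adjusted p = 0.026), and was called in 13 of 19 alternatives. Gsdmd, the pore-forming substrate of caspase-4, had 0.10 and was not called, and Nlrp3, Pycard, Nlrc4 and Il18 had too few reads to test.

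Of 14 genes for calpain substrates and titin N2A partners, all were tested and none was called by edgeR, 1 combined an unadjusted p of 0.05 or less with a 1.5-fold change, and DESeq2 called 1. The median log2 fold change was −0.04. The largest value was that of Ankrd2, a muscle ankyrin repeat protein that binds titin near calpain-3, at −1.29 (63.1 ± 24.9 and 25.8 ± 20.5 CPM, edgeR adjusted p = 0.102). For Ankrd2, LLC 1 lay inside the Control range at 65.2 CPM (Control 46.4 to 99.6). The other LLC libraries lay below that range, at 12.9 to 31.5 CPM. Tln1, which encodes talin, a calpain substrate, had −0.42 (adjusted p = 0.045 by the same test), under the 1.5-fold minimum.

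**Figure D5:**
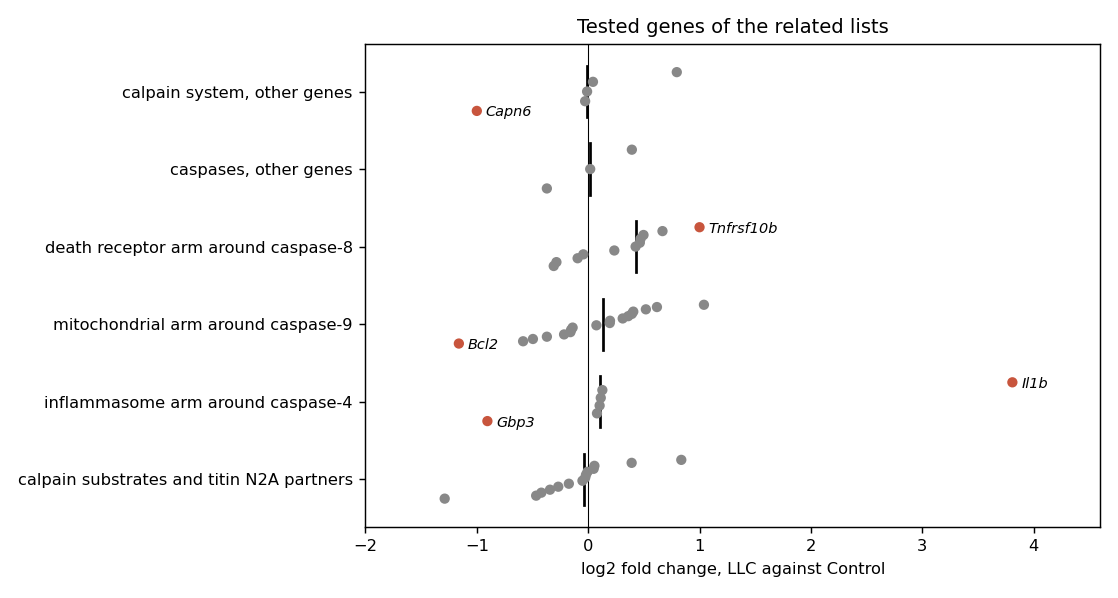
Log2 fold change of LLC against Control for each tested gene of the 6 related lists, with called genes in red and named, and black bars at the list medians. Tnfrsf10b lies to the right, and Capn6, Bcl2 and Gbp3 to the left, while Il1b is drawn although it passed the low-count filter through the LLC libraries alone and its position rests on 1 or 2 reads per Control library.

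Some of the 8 genes share sequence with others. The study's methods give HTSeq's default settings, which count by strand, for RefSeq genes, while the deposited tables list Ensembl identifiers, so it is not certain that this setting made these tables or which exons each count covers. Capn3 overlaps Ganc on the same strand over 386 bases, and Ganc had 262 to 698 reads against 1802 to 3621 for Capn3. Cast overlaps Erap1 on the opposite strand over 834 bases, with 291 to 378 reads for Erap1. The antisense gene Gm37885 covers 1717 exon bases of Capn2, Gm10814 (13 to 33 reads) covers 394 of Capn1 and Gm26810 (0 to 2 reads) covers 202 of Capns1, so a share of Capn1, Capn2, Capn3, Capns1 and Cast reads is uncertain. Casp9 overlaps Cela2a and Ctrc over 94 bases, and those genes had at most 1 read. Casp8 and Casp4 overlap no other exon. Of the 50-base stretches in the transcripts of each gene, those found in transcripts of other genes made up 23.55% for Capn2, 10.48% for Cast (shared with 640 genes), 6.318% for Capn3, 6.187% for Capn1, 4.373% for Casp8 (all with Gm20257), 4.254% for Capns1, 0.8553% for Casp9 and 0.2399% for Casp4.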

How the data were processed

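Libraries were made with a stranded total RNA kit and sequenced as paired ends in 1 lane, and per the labels and the study's methods the authors aligned reads to mm10 with TopHat2 and used HTSeq's default settings for counting. Raw counts were deposited by the authors, 1 table per library. The methods name RefSeq genes, but the tables list Ensembl identifiers, whose annotation release is not given in the sources used here. Of 39179 identifiers, 37607 were matched to symbols through GENCODE M21 (GRCm38, the assembly of mm10).

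Counts were analysed with edgeR 4.0.16 (R 4.3.3): filterByExpr with a minimum count of 10, TMM factors, quasi-likelihood fit of group alone over all 10 libraries, and Benjamini-Hochberg adjustment over 12690 genes. Displayed levels are CPM of TMM-scaled totals without a prior count. DESeq2 1.42.0, limma 3.58.1 (voom), other scalings and filters, a replicate block and leaving out each library were the alternatives, 19 in all. Scripts were tested on simulated data. Single values per library were compared by exact permutation.

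The 8 genes and the related and marker lists were chosen with earlier results of these data known. Named genes were the 8, their closest relatives, called genes of each list and the 3 nearest patterns per gene; Tnfrsf1a, Ankrd2, Tln1 and the genes that overlap the 8 fall outside this rule and were chosen after their values were seen. Promoter windows are RefSeq's (GRCm38.p6). Small RNA libraries of the study were not analysed here, and some genes of the related lists are not reported here.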

Additional observations from a re-analysis of the deposited data

Results flagged for a closer look

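A sample was marked where its gap to the nearest other sample of its group exceeded Dixon's 95% critical value, 0.625 of the range for 6 samples. Of 32 groups examined 4 were marked, where chance gives about 1.6, and all 4 were LLC 1. Its Capn3 level was 92.6 CPM, with the nearest LLC library at 152 CPM (gap 0.682 of the range). Its Cast level was 98.7 CPM, against 75.2 CPM in the nearest library (0.657). Its Casp9 level was 1.64 CPM, against 2.20 CPM (0.676). Its summed fast fibre markers were 78637 CPM, against 113979 CPM (0.706). The 4 values come from the same library and are not independent of each other.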

How the results depend on the processing

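The 715 genes past both thresholds became 475 with at least 10 counts in every sample, 112 with the replicate block, 1572 with unadjusted p and 416 to 966 without 1 library. The 887 genes past adjusted p alone became 1508 with DESeq2, 2279 with voom, 112 with the block, 3472 with unadjusted p and 436 to 1796 without 1 library. The share of called genes that were lower was 70.8%, and 63.1% with DESeq2 (1052 called).

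Of the 8 genes, 1 passed by either rule, 0 with the block (Casp4 log2 fold change 1.20, adjusted p = 0.212) and 0 to 1 without 1 library. The range of Casp4 over 19 alternatives was 0.93 to 1.6, with adjusted p from 0.00361 to 0.212, past the threshold in 12. Replicate numbers did not pair the samples, which are different mice (correlations of same-numbered deviations −0.029, 0.0093, −0.081 and 0.13). Replicate numbers 5 and 6 occur only in LLC, so with the block LLC 5 and LLC 6 carry no information on the group difference. Calls in the lists with the block were 0 for other calpains, 0 for death receptor and 0 for mitochondrial genes. The 1 inflammasome call with the block was Il1b, which passed the low-count filter through the LLC libraries alone, so nothing is read from it. With unadjusted p they were 2 for other calpains, 2 for death receptor, 3 for mitochondrial genes and 1 for calpain substrates. Without 1 library they were 0 to 1 for other calpains, 0 to 1 for mitochondrial genes, 1 to 2 for inflammasome genes (Il1b included) and 0 to 1 for substrates, and inflammasome genes had 1 with at least 10 counts in every sample. DESeq2 and voom each called 1 substrate.

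The sign turned for values near 0. With voom, Capn3 was 0.0478, Cast −0.0848, Capn7 0.0349 and Cflar 0.0027. With upper-quartile factors, Cast was −0.0306 and Casp2 −0.0133. Cast was −0.0027 with at least 10 counts in every sample. Capn7 was 0.00064 with median-of-ratios factors, 0.00039 without a filter and 0.00015 with DESeq2. Capn10 was −0.0088 with the block. Without 1 library, the ranges were −0.057 to 0.108 for Capn3, −0.0712 to 0.0582 for Cast, −0.0541 to 0.0736 for Casp2, −0.0303 to 0.0342 for Capn7, −0.0400 to 0.124 for Capn10 and −0.0728 to 0.0163 for Capn15. None of these passed the test, and the cause was not tested. In all, 496 values of single genes kept direction and call, 24 lost the call and 25 turned sign. Depth limits the caspases most: Casp4 rests on 10 to 63 reads and Casp9 on 32 to 60, and intervals from reads would cover counting error only.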
